A study of Mus musculus with 12 samples.

Results

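The genes described here are the named long noncoding RNAs and small-RNA host genes read in mouse liver, 91 of the 48440 genes in the deposited tables. Their symbols chose them: Snhg (small nucleolar RNA host gene) with a number, Mir with the ending hg (microRNA host gene), the 5 singly named RNAs Gas5, Neat1, Malat1, Meg3 and H19, and symbols of at least 6 characters that end in os (opposite strand), with or without a number. A gene also needed at least 10 total gene reads in at least 3 of the 12 libraries. Of 321 matching symbols, 91 met that minimum, 59 of them with 10 or more reads in all 12 libraries, and 69 of the other 230 had no read at all. The 91 comprised the 5 singly named RNAs, 12 Snhg genes, 5 microRNA host genes and 69 genes with an os symbol. Just inside the minimum, with 3 libraries at 10 reads, were Scpep1os, Ppp1r18os, Rsf1os1, Mypopos, Stamos, Phtf1os and Bach2os, with 79 to 103 reads in all. Just outside, with 2 such libraries, were Ttc39aos1, Snhg4, Fhad1os2, Zmiz1os1 and Zeb2os, with 57 to 101 reads.

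Long noncoding RNAs are transcribed and often spliced like messenger RNAs but act, where a role is known, as RNA. Malat1 sits in nuclear speckles, bodies rich in splicing factors, and Neat1 is the scaffold of paraspeckles. Host genes carry snoRNAs or microRNAs in their introns or exons, and the spliced remainder is often a by-product that is degraded quickly. Opposite-strand genes are named after the neighbour they face, and many start at or run across that neighbour.

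Poly(A) RNA was sequenced from livers of male C57BL/6 mice aged 8 weeks on a normal diet, kept in a cycle of 12 hours of light and 12 of dark. Livers were taken at ZT2 or ZT14 (hours after lights on) from wild-type animals (WT) or from animals whose livers overexpress E4BP4 from a transgene (TG), with 3 libraries in each of the 4 groups. E4BP4, the product of Nfil3, is a bZIP repressor at D-box elements downstream of the circadian clock. The sources used here name neither the promoter of the transgene nor the animals behind the libraries of a group, so the tests weigh differences against the scatter of these libraries, which may be technical.

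Depth was 16035121 to 23981021 total gene reads a library. Nfil3 was higher in every TG library (62.5 to 93.9 CPM, read counts scaled to library size with TMM factors) than in any WT library (24.6 to 48.7 CPM). Its log2 fold change was 0.81 at ZT2 (edgeR adjusted p 0.359), 1.34 at ZT14 (adjusted p 0.0306) and 1.07 averaged (adjusted p 0.00941). At ZT2, the test used below thus did not call the gene of the transgene itself. On the second principal component, replicate 2 of TG at ZT2 (-30.8) and replicate 3 of TG at ZT14 (-33.2) stood apart from the other 10 libraries, which were all above 0. Summed hepatocyte markers were at 64889 to 83067 CPM, all 7 with reads. The 2 libraries that stood apart had the highest sums of hepatocyte (82117 and 83067 CPM) and erythroid markers (546 and 414 CPM, against 238 to 354 CPM elsewhere). Their sums were also highest for Kupffer cell and lymphocyte markers, but not for endothelial, stellate, cholangiocyte or neutrophil markers. The 7 endothelial markers summed to 328 to 355 CPM in WT and 349 to 363 CPM in TG at ZT2, and to 298 to 323 and 293 to 318 CPM at ZT14, so that the sum of every ZT14 library was lower than that of every ZT2 library. Singly, only Clec4g separated the times, while Pecam1, Stab2, Kdr, Cdh5 and Ehd3 overlapped. Lyve1 went the other way, with 9.36 to 16.5 CPM at ZT2 and 12.2 to 20.7 CPM at ZT14. In bulk tissue, fewer cells of a type and less RNA per cell cannot be told apart, and the part of this shift in the differences between times below was not tested.

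The microRNAs inside the 5 Mir host genes are shown because they are what these transcripts are known for, and because the host reads below are not a measure of them. Mature sequences are from RefSeq (GRCm38.p6), with the seed, bases 2 to 8, in capitals. RefSeq places 25 mature microRNAs of the hosts' strand inside them, 11 in Mir17hg, 6 in Mir99ahg, 4 in Mir670hg and 2 each in Mir22hg and Mir142hg. Those of Mir22hg (chr11:75463734-75463793, plus strand) lie in an exon of a host transcript:
mmu-miR-22-3p: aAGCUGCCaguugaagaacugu
mmu-miR-22-5p: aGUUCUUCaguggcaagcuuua
Mir99ahg carries 3 microRNA genes in introns (chr16:77598940-77646339, plus strand), whose major arms have 3 unlike seeds:
mmu-miR-99a-5p: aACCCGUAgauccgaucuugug
mmu-let-7c-5p: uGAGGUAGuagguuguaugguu
mmu-miR-125b-5p: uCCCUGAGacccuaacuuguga
Mir17hg holds 6 microRNA genes in exons (chr14:115043684-115044496, plus strand), in which 2 pairs share a seed, AAAGUGC and GUGCAAA:
mmu-miR-17-5p: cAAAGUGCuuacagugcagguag
mmu-miR-20a-5p: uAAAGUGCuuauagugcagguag
mmu-miR-19a-3p: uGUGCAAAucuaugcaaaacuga
mmu-miR-19b-3p: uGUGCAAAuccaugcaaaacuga
mmu-miR-18a-5p: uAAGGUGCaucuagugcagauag
mmu-miR-92a-3p: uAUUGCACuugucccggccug
Mir142hg carries its microRNA in an intron (chr11:87756867-87756925, plus strand):
mmu-miR-142a-3p: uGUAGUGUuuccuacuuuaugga

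The small RNAs themselves were not measured in these poly(A) libraries. GENCODE M21 puts 234 snoRNA genes inside 11 of the 12 Snhg genes, 208 of them in Snhg14, 8 in Snhg1 and 5 in Snhg12, and 10 more in Gas5. Of the 234, 210 lay in introns of the host and 22 in an exon of some host transcript. Rows of their own had 0 reads in all 12 libraries together for 230 of the 234, for all 10 in Gas5 and for all 14 microRNA genes of the Mir hosts, which allows up to 3 reads each. The highest total of the others was 3 reads. All values below are therefore of the host transcripts.

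The symbols do not define a single kind of RNA. GENCODE M21 classes 10 of the 91 as protein-coding, among them Snhg11, Toporsos, Zbtb8os, Minos1, Wdr83os, Slc7a6os, Ccpg1os, Chd3os and Cebpzos. Minos1, which encodes a protein of the mitochondrial inner membrane, meets the rule by its spelling and is not an opposite-strand gene. Of the 69 os symbols, 49 are classed as antisense. A gene named by the symbol without its ending was in the tables for 67 of the 69, on the opposite strand in all 67 and overlapping in 49. In 48 of the os genes, part of the exon sequence is shared with an exon on the other strand. The sources used here do not say whether reads were counted by strand, so reads of such a pair may not be told apart.

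The reads behind the classes differed in kind. Intron reads made up a median of 80.1% of the reads of an os gene and 19.9% of those of a Snhg gene. The tables counted as uniquely mapped a median of 61.6% of the reads of an os gene and 99.9% of those of a Snhg gene. At least 90% of the reads were unique in 38 of the 91, in 10 of the 12 Snhg genes and in 22 of the 69 os genes. Mir670hg, Mir142hg and Mir99ahg were read mostly in introns too, at 91.2%, 89.1% and 90.7%. Snhg3 was the Snhg gene with the lowest unique share, 46.1%, and 71.5% of its exon bases are also exon on the other strand.

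**Figure D1:**
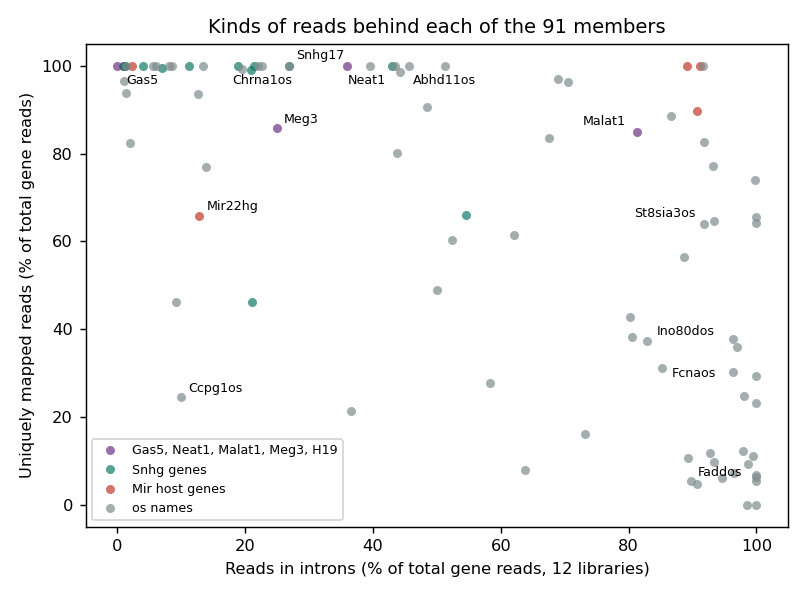
Each point is 1 of the 91 genes, coloured by class, with the percentage of its total gene reads that lie in introns (x) against the percentage counted as uniquely mapped (y), over all 12 libraries. Snhg genes gather at the upper left, while os genes spread to the lower right, where Faddos lies at 89.7% intron reads and 5.43% unique reads.

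The 91 genes together took 0.171% to 0.322% of the total gene reads of a library, of which Malat1 took 57.0% to 67.9% and Neat1 7.73% to 20.9%. Levels between genes are compared per length, as deposited RPKM (reads per kilobase of exon, scaled to depth). Malat1 was highest with a mean of 140 RPKM over 12 libraries, followed by Neat1 with 62.7. The ranges of these neighbours in the order met, since Neat1 reached 146 RPKM in WT at ZT2 replicate 3 and Malat1 went down to 110. Wdr83os (24.1), Snhg8 (15.2), Minos1 (12.5) and Gas5 (10.2) came next. Of these, Wdr83os encodes a small protein of the endoplasmic reticulum membrane. Above 1 RPKM were 31 of the 91, and 8 had a mean of 0 RPKM because none of their reads was in an exon or no exon length was given. Malat1's exon length in the tables is 1834 of 6983 bases, and 81.3% of its reads were counted as intron, so its RPKM leaves most of its reads out. For Neat1 the exon length is 3004 of 20771 bases, and 36.0% of the reads were counted as intron. Each has a single row, so isoforms were not told apart. How far the choice of poly(A) RNA sets the values of Malat1 and Neat1 was not tested.

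The highest Snhg genes after Snhg8 were Snhg6 (4.30 RPKM), Snhg20 (4.18), Snhg12 (2.02) and Snhg3 (1.96). Among os symbols, the highest after Wdr83os and Minos1 were Slc7a6os (7.61), Epb41l4aos (6.62) and Cebpzos (5.51). Mir22hg led the Mir hosts at 1.88 RPKM, above Mir17hg (0.584), Mir142hg (0.313), Mir99ahg (0.0523) and Mir670hg (0.0516). H19 and Meg3 had means of 0.257 and 0.107 RPKM.

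**Figure D2:**
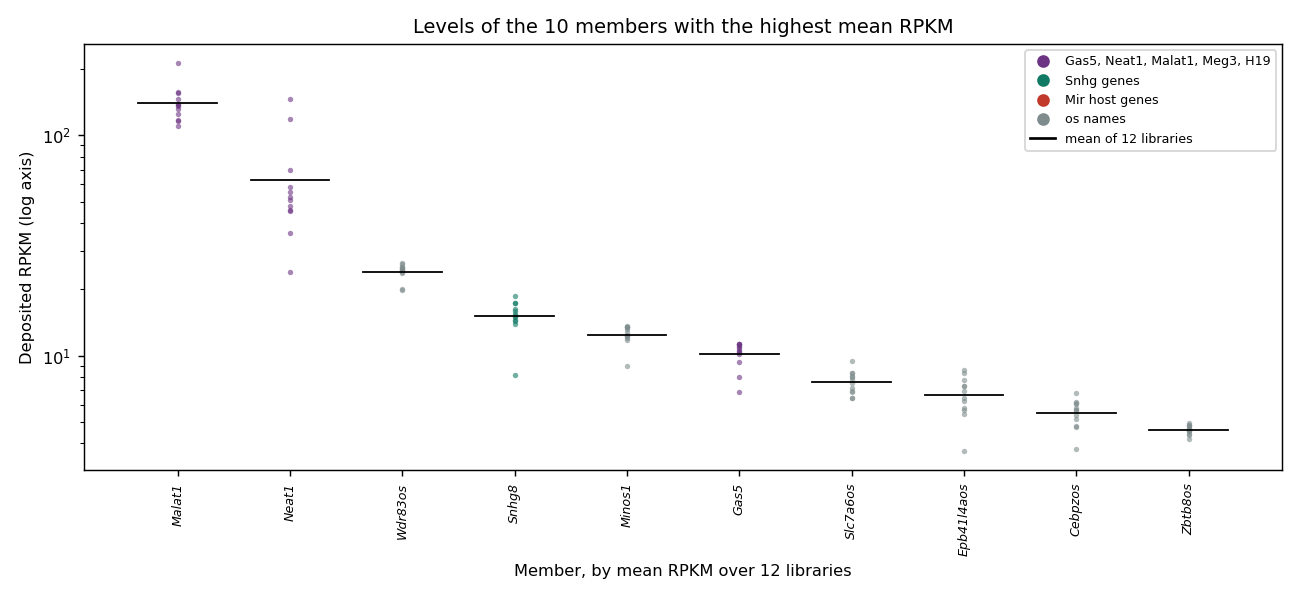
Deposited RPKM on a log axis (y) for the 10 genes with the highest mean (x, in order), 1 point per library with a value above 0 and a black line at the mean of 12 libraries. Malat1 and Neat1 have the highest means, and the Neat1 points spread from 24.0 to 146 RPKM.

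The comparison of TG with WT asks whether the E4BP4 transgene moved these RNAs. No gene of the class was called, at an adjusted p below 0.05, at ZT2, at ZT14 or averaged over both times, among the 89 that passed the filter for the edgeR test (Stamos and Rsf1os1 did not). Over all 15244 genes tested, 0.0722% were called at ZT2, 0.0853% at ZT14 and 0.144% averaged over both times. By direction these were 0.0525% higher and 0.0197% lower in TG at ZT2, 0.0459% and 0.0394% at ZT14, and 0.112% and 0.0328% averaged. At an unadjusted p below 0.05 there were 7, 5 and 7 of the 89, or 7.87%, 5.62% and 7.87%, against 7.56%, 6.91% and 8.82% of all genes. DESeq2 and limma-voom called 0 of the 89 in each of these contrasts too. The median log2 fold change of the 89 was 0.12 at ZT2 and -0.04 at ZT14, beside -0.00298 and 0.00745 for all genes.

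Slc7a6os (ENSMUSG00000033106, GRCm38 chromosome 8, 106200438 to 106210933, minus strand) had the smallest p of these contrasts. It encodes a protein related to a yeast import factor of RNA polymerase II. The WT libraries were at 15.2, 16.0 and 17.4 CPM at ZT2 and 17.2, 16.4 and 15.8 CPM at ZT14, and TG libraries at 13.5, 13.8 and 13.2 CPM and 12.6, 14.9 and 13.8 CPM. Every TG library was thus lower than every WT library, and no other of the 89 separated the genotypes over all 12 libraries in either direction, beside 0.105% of all genes lower and 0.197% higher in TG. The averaged log2 fold change was -0.26 (SE 0.06), with an adjusted p of 0.273 in edgeR, and -0.26 at each time. Over 22 alternatives the adjusted p ranged from 0.156 to 0.533, and none called it. Its neighbour Slc7a6, an amino acid transporter gene, was at 0.670 ± 0.153 CPM (SD, n = 3) in WT at ZT2 and 0.497 ± 0.0462 CPM in TG.

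The next smallest p-values did not pass the adjusted threshold either. Mir99ahg, host of miR-99a, let-7c-1 and miR-125b-2 (sequences above), read 4.98, 3.92 and 5.58 CPM in WT and 7.27, 7.75 and 6.95 CPM in TG at ZT2. The groups did not overlap there (log2 fold change 0.59, SE 0.17, edgeR adjusted p 0.442). At ZT14 they did, with 5.63, 4.82 and 6.69 CPM in WT and 5.77, 4.85 and 4.73 CPM in TG. Prox1os lies head to head with Prox1, a homeobox gene of hepatocytes and lymphatic endothelium, and overlaps it by 419 bases. At ZT14 it was at 18.1, 18.1 and 18.3 CPM in WT and 23.2, 23.5 and 23.8 CPM in TG, again without overlap (log2 fold change 0.37, SE 0.11, adjusted p 0.547). At ZT2 its groups overlapped, with means of 19.5 ± 2.96 and 19.3 ± 2.47 CPM. Introns held 86.6% of the Prox1os reads. Its RPKM, which rests on exon reads, overlapped at ZT14, with 2.74, 2.96 and 2.20 in WT and 1.92, 3.16 and 3.37 in TG. Between the times, exon reads alone called Prox1os over both genotypes. Mean RPKM was 3.89 in WT and 3.86 in TG at ZT2, and 2.63 and 2.82 at ZT14. On total reads that log2 fold change was 0.09 (edgeR adjusted p 0.453). Prox1 itself was at 122 ± 29.3 CPM in WT livers and 174 ± 7.26 CPM in TG livers at ZT14.

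Chrna1os, named after a muscle acetylcholine receptor gene that had no read, was at 0.682, 0.768 and 0.514 CPM in WT and 0.448, 0.126 and 0.199 CPM in TG at ZT14 (log2 fold change -1.34, adjusted p 0.585). These CPM rest on 3 to 18 reads a library. Tmcc3os (163 reads in all, 11.04% of them unique) had an averaged log2 fold change of 1.37 (SE 0.47, adjusted p 0.480). Snhg18, host of 1 snoRNA, had 0.66 (SE 0.26, adjusted p 0.506), with means of 0.424 ± 0.107 CPM in WT livers and 0.786 ± 0.0217 CPM in TG at ZT14. Of the 89, 7 at ZT2 and 4 at ZT14 were higher in all 3 TG libraries than in all 3 WT libraries, and 5 and 4 were lower. These are 7.87% and 4.49% of the 89 for higher and 5.62% and 4.49% for lower, against 6.25%, 6.12%, 5.86% and 6.32% of all genes, so the shares lay near the background.

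**Figure D3:**
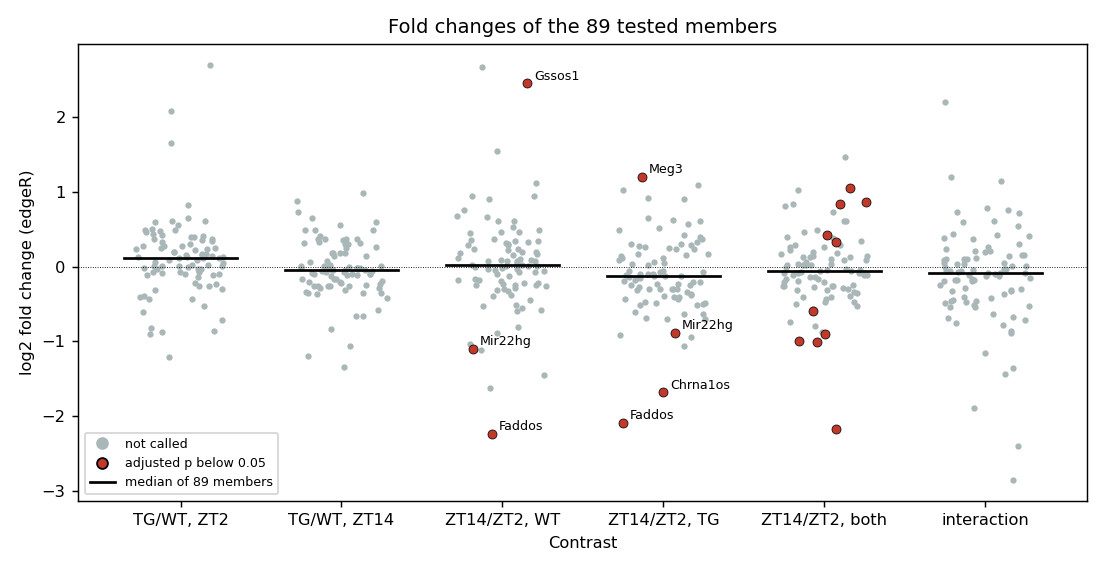
Log2 fold changes (y) of the 89 tested genes in 6 contrasts (x), with called genes in red, the others in grey, and a black line at the median. The TG against WT columns hold no red point, and the column for ZT14 against ZT2 over both genotypes holds 10.

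The comparison of ZT14 with ZT2 asks which of these RNAs differ between early night and early day. In WT, 1 of 89 rose (Gssos1) and 2 fell (Faddos and Mir22hg), or 3.37%, where 9.17% of all genes were called, 4.85% up and 4.32% down. In TG, 1 rose (Meg3) and 3 fell (Faddos, Chrna1os and Mir22hg), or 4.49%, against 12.2% of all genes, 6.70% up and 5.52% down. Leaving out 1 library at a time gave 1 to 5 in each genotype. In WT the count was 1 without replicate 3 of ZT2 or replicate 1 or 3 of ZT14, and 5 without replicate 2 of ZT14. In TG it was 1 without replicate 2 or 3 of ZT2 or replicate 2 of ZT14, and 2 without replicate 1 of either time. Averaged over both genotypes, 5 rose (Meg3, Fcnaos, Abhd11os, Snhg17 and Ino80dos) and 5 fell (Faddos, Chrna1os, Mir22hg, St8sia3os and Ccpg1os), or 11.2%, against 22.5% of all genes, 12.0% up and 10.4% down. At an unadjusted p below 0.05 there were 17 (19.1%), against 34.2%. The share called was thus below the background in each of these contrasts, and 32 of the 91 had under 10 reads in some library. The median log2 fold change averaged over both genotypes was -0.05, beside 0.00115 for all genes. Without the 2 libraries that stood apart, 10 were called again, and 6 of them were the same genes: Faddos, Mir22hg, Meg3, St8sia3os, Ccpg1os and Abhd11os.

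**Figure D4:**
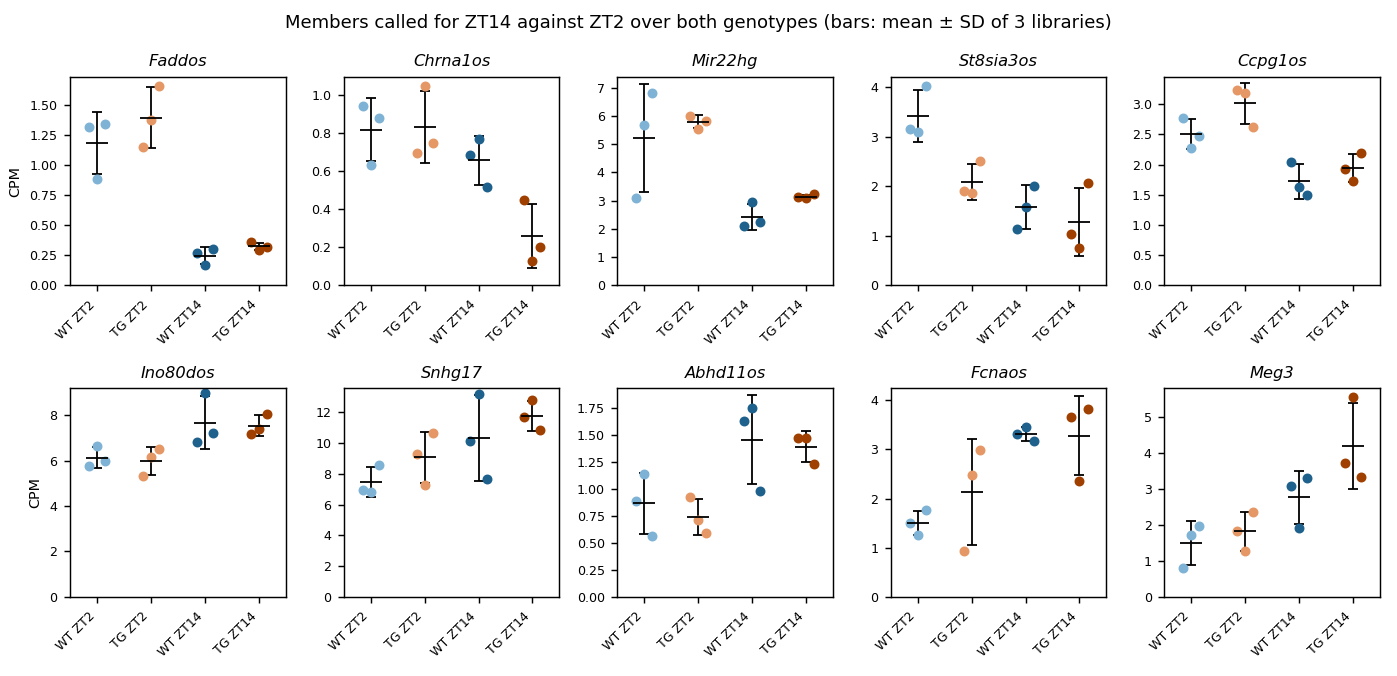
TMM-scaled CPM (y, from 0) of the 10 genes called for ZT14 against ZT2 over both genotypes, 1 point per library in the 4 groups (x), with bars for the mean ± SD of 3 libraries. Faddos and Ccpg1os are lower in all 6 ZT14 libraries than in all 6 ZT2 libraries and Ino80dos is higher, while the groups of the other 7 meet or overlap in some libraries.

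Mir22hg (ENSMUSG00000085148, chromosome 11, 75461539 to 75466676, plus strand), the host of miR-22, was the only Mir host called. At ZT2 it was at 3.10, 5.69 and 6.82 CPM in WT and 6.00, 5.55 and 5.83 CPM in TG. At ZT14 it was at 2.09, 2.94 and 2.23 CPM in WT and 3.13, 3.08 and 3.22 CPM in TG. Within each genotype no ZT14 library reached a ZT2 library, although WT at ZT2 replicate 1 lay among the TG values of ZT14. Mir22hg fell by 0.99 on the log2 scale averaged over both genotypes (SE 0.17, edgeR adjusted p 0.00147), by 1.10 in WT (adjusted p 0.0155) and by 0.88 in TG (adjusted p 0.0330). All 22 alternatives at the same threshold called the averaged difference, and on exon reads alone it was -1.13 (adjusted p 0.000542). Within a genotype the call depended on single libraries. In WT it was lost without replicate 3 of ZT2 (-0.84, adjusted p 0.0647), replicate 1 of ZT14 (adjusted p 0.0721) or replicate 3 of ZT14 (adjusted p 0.0626), and in a fit to the 6 WT libraries alone (adjusted p 0.0596). In TG it was lost without any 1 of its 6 libraries (adjusted p up to 0.0868) and without both libraries that stood apart (-0.94, adjusted p 0.104).

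Only 65.9% of Mir22hg reads were counted as unique, and Tlcd2, a gene of lipid membranes on the same strand, overlaps it by 4962 bases. Tlcd2 was at 139 ± 3.95 CPM in WT livers and 153 ± 39.6 CPM in TG livers at ZT2, and at 132 ± 14.9 and 95.3 ± 16.9 CPM at ZT14. It fell by 0.37 on the log2 scale (SE 0.12, adjusted p 0.0442). On uniquely mapped reads Mir22hg gave -1.08 (adjusted p 0.000800). The unique reads numbered 201 in WT and 206 in TG at ZT2, and 122 and 125 at ZT14.

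No other Mir host was called. Mir17hg, whose transcript holds the cluster shown above in exons, was at 3.03 ± 1.10 CPM in WT livers and 1.98 ± 0.996 CPM in TG livers at ZT2, and at 1.61 ± 0.792 and 1.83 ± 0.843 CPM at ZT14 (averaged log2 fold change -0.50, SE 0.33, adjusted p 0.326). Mir142hg, a gene of blood cells, rested on 201 reads in all and gave 0.02 (SE 0.36, adjusted p 0.977). Mir670hg gave 0.46 (SE 0.19, adjusted p 0.102). For Mir99ahg the time difference was 0.24 in WT and -0.52 in TG (adjusted p 0.445 and 0.0593), and DESeq2, limma-voom, a filter of 1 CPM and a fit without WT at ZT2 replicate 2 called the latter. The test of the difference between these (TG less WT) gave -0.75 (SE 0.23, edgeR adjusted p 0.735).

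Meg3 (ENSMUSG00000021268, chromosome 12, 109541001 to 109571726, plus strand), a maternally expressed imprinted lncRNA, was the singly named RNA that passed the test. WT libraries were at 0.799, 1.71 and 1.96 CPM at ZT2 and 3.09, 1.92 and 3.30 CPM at ZT14. TG libraries were at 1.85, 1.26 and 2.35 CPM at ZT2 and 3.71, 5.57 and 3.34 CPM at ZT14. All 3 TG libraries of ZT14 were above the TG libraries of ZT2, and in WT replicate 2 of ZT14 lay just below the highest of ZT2. Meg3 rose by 1.05 on the log2 scale averaged over both genotypes (SE 0.25, edgeR adjusted p 0.00887), and by 1.20 in TG (SE 0.34, adjusted p 0.0385). In WT the value was 0.91 (SE 0.36, adjusted p 0.143), and the difference between genotypes was 0.30 (SE 0.50, adjusted p 0.960). All 22 alternatives at the same threshold called the averaged difference, with adjusted p from 0.000503 to 0.0241. The call in TG was lost in 9 of 23 alternatives, among them exon reads, omission of any 1 of 6 libraries (the 3 of TG at ZT2, replicates 1 and 2 of TG at ZT14 and replicate 1 of WT at ZT14, with adjusted p up to 0.136) and omission of both libraries that stood apart (1.13, adjusted p 0.114).

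Of the other imprinted genes in the tables, 0 of 12 tested were called for time and 0 for genotype in edgeR, against 22.5% and 0.144% of all genes in the averaged contrasts. In these, 0 had an unadjusted p below 0.05 for time, against 34.2% of all genes. For genotype there were 2 (16.7%, against 8.82%). Rian, the next maternal transcript of the Meg3 locus, was at 0.367 ± 0.207 CPM in WT livers and 1.05 ± 0.369 CPM in TG livers at ZT2, and at 0.635 ± 0.268 and 1.05 ± 0.396 CPM at ZT14. Its averaged genotype difference was 1.12 on the log2 scale (adjusted p 0.450). Summed stellate cell and fibroblast markers, of cells that can express Meg3, were at 218 to 283 CPM in WT and 279 to 373 CPM in TG at ZT2, and at 244 to 270 and 253 to 337 CPM at ZT14, with overlap between the times in each genotype.

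H19, an imprinted RNA that is abundant in fetal liver, was close to the limit of detection. Its reads numbered 2, 0 and 4 in WT and 9, 26 and 4 in TG at ZT2, and 26, 6 and 16 in WT and 19, 1 and 43 in TG at ZT14. In WT the ZT14 libraries were above those of ZT2, while TG libraries ran from 1 to 43 reads at ZT14 alone. The averaged time difference was 1.47 (SE 0.75, adjusted p 0.191) and the averaged genotype difference 1.51 (SE 0.75, adjusted p 0.590).

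Malat1 (ENSMUSG00000092341) and Neat1 (ENSMUSG00000092274) lie close together on the minus strand of chromosome 19, at 5795690 to 5802672 and 5824708 to 5845478. Malat1 was at 1115, 1183 and 2128 CPM in WT and 1376, 1508 and 1355 CPM in TG at ZT2, and at 1324, 1412 and 1230 CPM in WT and 1484, 1328 and 1099 CPM in TG at ZT14. Neat1 was at 211, 145 and 628 CPM in WT and 212, 317 and 497 CPM in TG at ZT2, and at 257, 316 and 183 CPM in WT and 259, 249 and 250.2 CPM in TG at ZT14. WT at ZT2 replicate 3 was the highest library for both RNAs. It took 0.322% of its reads from the 91 genes, where the other 11 libraries took 0.171% to 0.240%.

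Neither RNA differed beyond the spread of the libraries. The averaged time difference of Malat1 was -0.14 (SE 0.15, adjusted p 0.558) and that of Neat1 -0.41 (SE 0.31, adjusted p 0.397), and without WT at ZT2 replicate 3 these became 0.043 and 0.032. Averaged genotype differences were -0.04 (SE 0.15) and 0.03 (SE 0.31). The Neat1 SD was 262 CPM in WT livers and 144 CPM in TG livers at ZT2, and 66.4 and 5.71 CPM at ZT14. Among 14 proteins of nuclear speckles and the SR family, 6 rose and 1 fell between ZT2 and ZT14 (50%, against 22.5% of all genes called), with Srsf2 at 0.66 (SE 0.08, adjusted p 0.000106) and Srsf5 at -0.45 (SE 0.08, adjusted p 0.00180). Among 13 paraspeckle proteins, 3 rose and 3 fell (46.2%, against the same 22.5%), Sfpq at 0.34 and Tardbp at -0.35. For genotype averaged over both times, 0 of each list were called in edgeR and 0 had an unadjusted p below 0.05. At ZT2, 1 of the 13 paraspeckle proteins did (7.69%, against 7.56% of all genes) and 0 of the 14, and at ZT14 0 of each list.

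**Figure D5:**
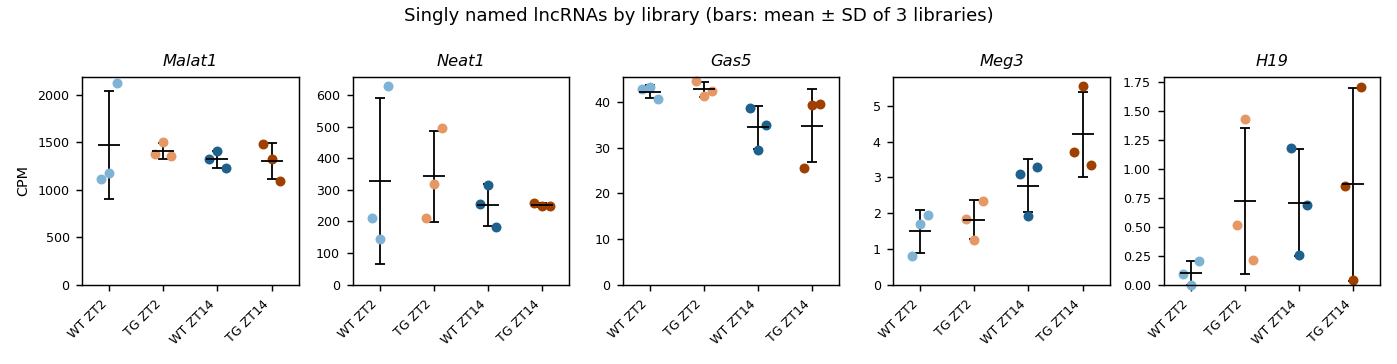
TMM-scaled CPM (y, from 0, a scale per panel) of the 5 singly named RNAs in the 4 groups (x), 1 point per library with bars for the mean ± SD of 3 libraries. WT at ZT2 replicate 3 is the top point of the Malat1 and Neat1 panels (2128 and 628 CPM), and Gas5 lies below 40 CPM in all 6 ZT14 libraries.

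Gas5 (ENSMUSG00000053332, chromosome 1, 161034422 to 161038539, plus strand) hosts 10 snoRNAs, and its spliced RNA is known as a target of nonsense-mediated decay. It was at 42.8, 43.3 and 40.7 CPM in WT and 44.5, 41.3 and 42.5 CPM in TG at ZT2. At ZT14 it was at 38.8, 29.6 and 34.9 CPM in WT and 25.6, 39.3 and 39.6 CPM in TG. Every ZT14 library was thus lower than every ZT2 library, a separation that 3 of the 89 showed in that direction (3.37%, against 5.21% of all genes). The averaged log2 fold change was -0.30 (SE 0.10), the same in both genotypes, and at an adjusted p of 0.0569 Gas5 was just outside the threshold in edgeR. DESeq2 (adjusted p 0.0367) and limma-voom (adjusted p 0.0496) called it, as did 10 of 22 alternatives in all, over which the adjusted p ranged from 0.0351 to 0.127.

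Snhg17 (ENSMUSG00000085385, chromosome 2, 158353700 to 158361580, minus strand), host of 3 snoRNAs, rose at ZT14. Its levels were 6.96, 6.83 and 8.58 CPM in WT and 9.28, 7.31 and 10.6 CPM in TG at ZT2, and 10.1, 13.2 and 7.67 CPM in WT and 11.7, 12.8 and 10.8 CPM in TG at ZT14. In TG the times did not overlap, and in WT they did. The averaged log2 fold change was 0.42 (SE 0.14, adjusted p 0.0414 in edgeR), and 12 of 22 alternatives no longer called it. Among these were limma-voom (adjusted p 0.0529), exon reads (adjusted p 0.0591), 8 of 12 omissions of 1 library and omission of both libraries that stood apart (0.37, adjusted p 0.0989). The other 11 Snhg genes were not called. Their averaged time differences ran from -0.35 for Snhg18 to 0.61 for Snhg15 (SE 0.27, adjusted p 0.124), with Snhg8 at -0.09 (SE 0.15), Snhg6 at -0.16 (SE 0.14) and Snhg1 at 0.10 (SE 0.14).

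Among 17 proteins of snoRNPs and their assembly, 3 rose between the times and none fell (17.6%, below the 22.5% of all genes): Nolc1 by 0.97 (SE 0.10, adjusted p 2.53e-05), Nop56 by 0.73 (SE 0.11) and Nop58 by 0.56 (SE 0.14). Nop56 and Nop58 are core proteins of box C/D snoRNPs. The median of the 17 was 0.09. Of 16 factors of nonsense-mediated decay and the exon junction, 3 rose (18.8%, also below 22.5%), with Upf1, its central helicase, at 0.57 (SE 0.05, adjusted p 8.17e-06), and the median was 0.01. Of 19 translation genes of the TOP type outside the ribosome, which are known, like Gas5, to start with a run of pyrimidines, Eif3l rose by 0.15 and Eif4b fell by 0.50 (10.5% called). Of these lists, 0 genes were called for genotype in edgeR, and 0 had an unadjusted p below 0.05 averaged over both times or at ZT2. At ZT14, 2 of the 17 snoRNP proteins (11.8%) and 2 of the 16 decay and junction factors (12.5%) did, against 6.91% of all genes. Of the 19 translation genes, 0 did.

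Of the 7 os genes called for time over both genotypes, Abhd11os and Chrna1os had at least 90% unique reads and the other 5 fewer. Faddos (ENSMUSG00000073778, chromosome 7, 144567355 to 144581512, plus strand) faces Fadd, the adaptor of death receptors, and had the largest fold among the calls over both genotypes. Its total reads were 28, 14 and 26 in WT and 20, 25 and 31 in TG at ZT2, and 6, 4 and 7 in WT and 8, 7 and 8 in TG at ZT14. No ZT14 library reached a ZT2 library in CPM. Faddos fell by 2.17 on the log2 scale (SE 0.23, edgeR adjusted p 3.70e-05), by 2.24 in WT and by 2.09 in TG, and each of 20 alternatives that tested it called it.

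Of its 184 reads, 89.7% lay in introns and 5.43% were unique. The unique reads numbered 5 in WT and 5 in TG at ZT2 and 0 in both groups at ZT14, which allows up to 3 reads each. It was too low to be tested on unique or on exon reads. Fadd, which overlaps it by 4195 bases, was at 9.27 ± 1.11 CPM in WT livers and 7.44 ± 1.11 CPM in TG livers at ZT2, and at 7.03 ± 0.631 and 7.39 ± 0.577 CPM at ZT14 (log2 fold change -0.21, SE 0.10, adjusted p 0.169).

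Fcnaos (ENSMUSG00000052403, chromosome 2, 25607892 to 25631761, plus strand) runs across Fcna, which encodes a ficolin, and at its start overlaps the first 630 bases of Rabl6, a Rab-like GTPase gene, on the other strand. It was at 1.504, 1.27 and 1.76 CPM in WT and 0.923, 2.47 and 2.99 CPM in TG at ZT2, and at 3.32, 3.46 and 3.17 CPM in WT and 3.67, 2.36 and 3.81 CPM in TG at ZT14. Fcnaos rose by 0.87 (SE 0.24, edgeR adjusted p 0.0188), and on unique reads, 30.4% of its total, the value was 0.45 (adjusted p 0.297). Without both libraries that stood apart it was 0.85 (adjusted p 0.0508). Introns held 96.4% of the Fcnaos reads. Rabl6 rose by 0.76 (SE 0.08, adjusted p 3.85e-05), from 24.7 ± 2.41 and 23.6 ± 1.30 CPM to 38.9 ± 5.36 and 43.1 ± 4.41 CPM in WT and TG. Fcna gave -0.20 (adjusted p 0.106). The part of Rabl6 reads in the Fcnaos value was not tested.

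Ino80dos (ENSMUSG00000084799, chromosome 1, 63113078 to 63158290, plus strand) overlaps 2 genes on the other strand: Ino80d, a gene of the INO80 chromatin remodeller, by 1590 bases and Ndufs1, a core subunit of respiratory complex I, by 14695 bases. It was at 5.78, 6.64 and 5.99 CPM in WT and 5.30, 6.15 and 6.52 CPM in TG at ZT2, and at 6.82, 9.002 and 7.20 CPM in WT and 7.16, 7.42 and 8.07 CPM in TG at ZT14. All 6 ZT14 libraries were above all 6 ZT2 libraries, as for 5.90% of all genes. Of the Ino80dos reads, 96.3% lay in introns and 37.8% were unique. Ino80dos rose by 0.33 (SE 0.10, edgeR adjusted p 0.0297), and by 0.44 on unique reads (adjusted p 0.0173), but 8 of 21 alternatives did not call it, 6 of them omissions of 1 library and 1 that of both libraries that stood apart (0.30, adjusted p 0.0975). Ndufs1 rose by 0.18 (SE 0.06, adjusted p 0.0476), and Ino80d gave -0.04 (adjusted p 0.723).

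Ccpg1os (ENSMUSG00000086158, chromosome 9, 72979722 to 72985382, minus strand) is classed as protein-coding and lies beside Ccpg1, a receptor for autophagy of the endoplasmic reticulum. At ZT2 it was at 2.77, 2.28 and 2.48 CPM in WT and 3.23, 3.19 and 2.62 CPM in TG, and at ZT14 at 2.04, 1.62 and 1.5004 and at 1.92, 1.73 and 2.19 CPM. The times did not overlap over the 12 libraries. Ccpg1os fell by 0.59 (SE 0.14, edgeR adjusted p 0.00928). On unique reads, 24.5% of its total, the value was -0.48 (SE 0.26, adjusted p 0.201), and Ccpg1 gave 0.07 (adjusted p 0.571). Gm44503, a gene of 357 reads on the other strand, overlaps all 5661 bases of Ccpg1os. It gave -0.26 (SE 0.47, adjusted p 0.740).

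Abhd11os, classed as a transcribed unitary pseudogene, read uniquely and shares 62 bases with Abhd11, a gene of a mitochondrial hydrolase. It was at 0.893, 1.14 and 0.568 CPM in WT and 0.923, 0.714 and 0.588 CPM in TG at ZT2, and at 1.64, 1.75 and 0.986 CPM in WT and 1.48, 1.48 and 1.23 CPM in TG at ZT14. It rose by 0.83 (SE 0.23, edgeR adjusted p 0.0199), and Abhd11 rose by 0.22 (SE 0.06, adjusted p 0.0199). This was the only pair of an os gene and its neighbour in which both were called, of 55 pairs tested. The call of Abhd11os was lost on exon reads (0.95, adjusted p 0.0531) and without replicate 3 of TG at ZT2 or replicate 1 of WT at ZT14. In those 55, the averaged time differences had the same sign in 27 and opposite signs in 28.

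Chrna1os read uniquely too, and its levels at ZT2 were 0.940, 0.633 and 0.878 CPM in WT and 0.692, 1.04 and 0.748 CPM in TG, beside the ZT14 values above. It fell by 1.00 (SE 0.29, edgeR adjusted p 0.0244) averaged over both genotypes and by 1.68 in TG (SE 0.43, adjusted p 0.0234), and in WT the value was -0.33 (SE 0.38, adjusted p 0.674). The call in TG was lost without replicate 2 or 3 of TG at either time (-1.75 to -1.36, adjusted p 0.0534 to 0.0828), without both libraries that stood apart (-1.34, adjusted p 0.168) and in a fit to the 6 TG libraries (adjusted p 0.0715). The difference between genotypes was -1.35 (SE 0.57, adjusted p 0.795). Without both libraries that stood apart, the averaged value was -0.84 (adjusted p 0.103). The averaged call was also lost without any 1 of 5 libraries: replicate 1 of WT at ZT2, replicate 2 of TG at ZT2, replicate 3 of WT at ZT14 and replicates 2 and 3 of TG at ZT14 (adjusted p up to 0.0588).

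St8sia3os, which overlaps the barely read St8sia3, was at 3.15, 3.10 and 4.03 CPM in WT and 1.90, 1.87 and 2.51 CPM in TG at ZT2. At ZT14 it was at 1.14, 1.58 and 2.01 CPM in WT and 1.03, 0.759 and 2.07 CPM in TG. It fell by 0.91 (SE 0.24, edgeR adjusted p 0.0159), and by 1.04 on unique reads (adjusted p 0.00857). Of its 510 reads, 93.3% lay in introns and 64.7% were unique. The WT libraries of ZT2 stood above all others, and the genotype difference at that time was -0.71 (SE 0.33, adjusted p 0.659).

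Gssos1 faces Gss, the gene of glutathione synthetase, and was called in WT alone. Its reads numbered 2, 2 and 2 in WT and 5, 3 and 11 in TG at ZT2, and 15, 9 and 18 in WT and 2, 4 and 13 in TG at ZT14. The log2 fold change was 2.46 in WT (SE 0.69, edgeR adjusted p 0.0444) and -0.40 in TG (SE 0.63, adjusted p 0.741), and the difference between them was -2.85 (SE 0.95, adjusted p 0.745), or -3.84 to -2.24 when 1 library was left out. Of 18 alternatives, 8 did not call it in WT, 7 of them omissions of 1 library, and DESeq2 gave it no adjusted p. Introns held 91.9% of its 86 reads, and 64.0% were unique.

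For the difference of the time effect between genotypes, 0 of the 89 were called in edgeR, beside 0.00656% of all genes, and 6 (6.74%) had an unadjusted p below 0.05, against 5.97%. DESeq2 and limma-voom called 0. The smallest p-values were those of Mir99ahg and Gssos1, above, and of Dnm3os, host of 2 microRNA genes, with -1.89 (SE 0.61, adjusted p 0.735) on 134 reads of which none was unique.

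The neighbours after which os genes are named were tested too. Of 56, 6 rose and 9 fell between ZT2 and ZT14 (26.8%, against 22.5% of all genes). For genotype, 0 were called in edgeR. Averaged over both times, 8 had an unadjusted p below 0.05 (14.3%, against 8.82% of all genes). Srrm4, a splicing factor gene, fell by 1.88 (SE 0.34, adjusted p 0.00192), while Srrm4os, of which 4.74% of reads were unique, gave -0.52 (SE 0.37, adjusted p 0.352). Among 15 proteins of microRNA processing and silencing, Xpo5, Ago2, Ago3 and Tnrc6c rose and Ago4, Tnrc6a and Tnrc6b fell (46.7%, against 22.5% of all genes), with Ago4 at -0.99 (SE 0.17, adjusted p 0.00142). Of 10 other named lncRNAs tested, 5 fell and none rose (50%, where 10.4% of all genes fell and 12.0% rose): Trp53cor1 by 1.23, Pvt1 by 0.86, Lncpint by 0.44, Dleu2 by 0.43 and Tug1 by 0.30.

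RefSeq promoter windows, 250 bases before to 50 after a start, matched 60 of the 91 genes by symbol or identifier, with 70 windows of 32851. On both strands, an E-box (CACGTG) was in 4 of the 70 (5.71%, against 7.15% of all windows), and a cAMP response element (TGACGTCA) in 4 (5.71%, against 1.79%), those of Gas5, Meg3, Snhg15 and Appbp2os. No window held a D-box (TTATGTAA or TTACGTAA, in 1.06% of all windows), the element that E4BP4 binds, or a RORE, the element of ROR and REV-ERB receptors (in 0.219%), and no match says only that these letters are not in these windows. Gas5 and Meg3 each have another RefSeq window, which holds none of the 4 motifs. The Meg3 window with the element is printed because Meg3 was called for time over both genotypes in all 22 alternatives. It spans chr12:109540746-109541045 (GRCm38.p6, plus strand), with the cAMP response element in capitals, 57 bases before the start:
Meg3 promoter: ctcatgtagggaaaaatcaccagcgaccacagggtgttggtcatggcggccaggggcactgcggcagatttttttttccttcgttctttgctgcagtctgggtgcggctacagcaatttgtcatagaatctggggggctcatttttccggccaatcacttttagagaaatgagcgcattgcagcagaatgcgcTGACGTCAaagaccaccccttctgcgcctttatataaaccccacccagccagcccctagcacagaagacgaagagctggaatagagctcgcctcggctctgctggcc
The Mir22hg window (chr11:75461289-75461588, plus strand) is shown beside it as that of the Mir host called for time, and holds none of the 4 motifs:
Mir22hg promoter: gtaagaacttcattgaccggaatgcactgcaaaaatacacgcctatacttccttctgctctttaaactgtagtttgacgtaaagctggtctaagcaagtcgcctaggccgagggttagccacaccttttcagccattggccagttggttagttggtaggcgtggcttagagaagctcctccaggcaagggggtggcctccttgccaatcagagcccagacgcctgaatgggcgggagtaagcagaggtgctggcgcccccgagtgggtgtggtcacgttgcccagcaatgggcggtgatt

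Many snoRNA host genes are known to start with a C and a run of pyrimidines, the TOP motif of ribosomal protein genes. Of 14 windows of Gas5 and the Snhg genes, 2 had a C at the annotated start as the first of a run of at least 5 pyrimidines (14.3%, against 2.51% of all windows), a search added after the values were seen. The starts of these, and the one of both RefSeq starts of Snhg17 that has a run, are shown from 10 bases before to 20 from the start, with the pyrimidine run in capitals (Gas5 at chr1:161035156-161035185, plus strand; Snhg8 at chr3:123508317-123508346 and Snhg17 at chr2:158361490-158361519, both minus strand):
Gas5: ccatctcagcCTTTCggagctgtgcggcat
Snhg8: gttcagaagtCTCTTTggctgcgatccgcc
Snhg17: aagaccacagTTTCCTgtcgcgtggatgtg
The run of Snhg17 begins with T, as do equally long runs at the starts of Snhg12 and Snhg18, which are not printed. Gas5 and Snhg17 each have another RefSeq start, which holds no pyrimidine run.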

How the data were processed

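Poly(A) RNA from mouse liver was analysed in 12 libraries (WT and TG at ZT2 and ZT14, 3 libraries a group). The authors deposited, per the file headers, read counts per gene (total, unique, exon, intron and junction reads) and RPKM, for 48440 genes; mm10 and GRCm38 are the builds in the submitters' processing notes. Not given in the sources used here were the aligner, the counter and the use of strand. RPKM was used for levels between genes and, for Prox1os, also between groups.

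Counts of total gene reads were tested with edgeR 4.0.16 in R 4.3.3: filterByExpr (minimum count 10, minimum total 15; 15244 genes kept), TMM, and 1 quasi-likelihood fit (glmQLFit, glmQLFTest) over all 12 libraries in 4 groups, with no covariate and 7 contrasts. Calls are Benjamini-Hochberg adjusted p-values below 0.05 over all genes tested. CPM are TMM-scaled, log2 fold changes carry standard errors (SE), and SD is over 3 libraries. Depth was 16035121 to 23981021 total gene reads, and intervals and limits of a count of 0 cover counting error only.

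The alternatives changed the tool (DESeq2 1.42.0, limma-voom with limma 3.58.1), the scaling (RLE, library size only), the filter (none beyond 1 read, 1 CPM in 3 libraries), the reads (unique, exon), the design (replicate block, only the 6 libraries compared), the threshold (adjusted p 0.01, log2 change of 1 either way) or the libraries: omission of the 2 libraries that stood apart, or of each library in turn. Counts of alternatives that called a gene leave out both stricter thresholds. The procedure was tested on simulated data. Classes and exons are from GENCODE M21, which held all 91 genes, 84 at the same coordinates; coordinates printed are those of the tables.

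The members and gene lists were chosen with earlier results of these data known. Values are given for genes called in any contrast, the 5 singly named RNAs, the 5 of each class with the highest mean RPKM, the 3 lowest p-values of each contrast, neighbours of such os genes, and, of each list, called genes or otherwise the 2 lowest p-values, of which a part is printed. Overlapping rows, and the other genes named for their low reads, were chosen after their values were seen. Some items are not reported here.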

Additional observations from a re-analysis of the deposited data

How the results depend on the processing

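Counts of called genes for genotype, at ZT2, at ZT14 and averaged, and for the interaction were 0 under every alternative run, in edgeR, DESeq2 and limma-voom. For ZT14 against ZT2 in WT (3 called), DESeq2 gave 5, no filter beyond 1 read 6, exon reads 1 and an adjusted p below 0.01 gave 1. In TG (4 called), exon reads gave 2, an adjusted p below 0.01 gave 1 and omission of the 2 libraries that stood apart 2. Averaged over both genotypes (10 called), exon reads gave 6, an adjusted p below 0.01 gave 4 and a log2 change of 1 or more either way 3. Leaving out 1 library at a time gave 1 to 5 in WT, 1 to 5 in TG and 7 to 11 averaged. The WT count was 1 when replicate 3 of ZT2, or replicate 1 or 3 of ZT14, was left out of WT, and 5 when replicate 2 of ZT14 was. The TG count was 1 when replicate 2 or 3 of ZT2, or replicate 2 of ZT14, was left out of TG, and 2 when replicate 1 of either time was. Exon reads left 52 and unique reads 68 of the 91 genes to test; the cause of the other changes was not tested.

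Of the 38 gene differences refitted under the alternatives, 5 turned sign in some, and no alternative called those 5; the other differences printed were not refitted. The averaged genotype difference of Gas5 (0.017) was -0.022 without the 2 libraries that stood apart, and -0.034 to 0.11 over single omissions. That of Malat1 (-0.041) ran from -0.13 to 0.14 over single omissions, and that of Neat1 (0.033) was -0.018 on exon reads and ran from -0.15 to 0.47. Averaged time differences ran from -0.23 to 0.043 for Malat1 and from -0.59 to 0.032 for Neat1.

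With the replicate number as a block, 0 genes were called for genotype and interaction, 4 for time in WT, 3 in TG and 9 averaged. The block ended the calls of Meg3 in TG (adjusted p 0.0526) and of Snhg17 (adjusted p 0.0721). The labels do not say whether the numbers pair the samples. Deviations from the group means correlated at -0.25 to 0.15 between same-numbered libraries (18 pairs, median 0.024) and at -0.27 to 0.43 between others (36 pairs, median -0.00107). The 0.43 was between the 2 libraries that stood apart. These values gave no sign of pairing but, with 3 libraries a group, do not decide it. For genes of a few reads a library, such as Gssos1 and H19, depth limits what can be seen, and a value that misses the threshold does not show that a gene did not differ. Fits to the 6 libraries compared apply only to contrasts of 1 time or genotype, and Faddos could not be tested on unique or exon reads.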

Other observations

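Some of these RNAs were high in a single library. Ctcflos was at 42.4 CPM in replicate 3 of TG at ZT14, and at 8.64 to 18.8 CPM in the other 11 libraries. Tmem147os was at 16.1 CPM in the same library, and at 5.50 to 10.4 CPM elsewhere. Of the 89 tested genes, 12 had their highest CPM in that library, 13 in replicate 2 of TG at ZT2 and 11 in replicate 3 of WT at ZT2, against 2 to 9 in each of the others. The libraries with 12 and 13 are the 2 that stood apart. The same counts were not made over all genes, so they show no trait of these RNAs. Ctcflos and Tmem147os were chosen after their values were seen.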
